A study of Mus musculus with 6 samples.

Results

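The genes of cholesterol synthesis and its control by sterol regulatory element-binding proteins (SREBPs) were followed in mouse cultures labelled as hepatic stellate cells. Stellate cells are the pericytes of the liver, which become collagen-producing myofibroblasts in culture. The set held 28 genes, chosen by symbol from a table of 55401 genes, and each symbol matched 1 row. They were 5 regulators (Srebf1, Srebf2, Scap, Insig1 and Insig2), 20 synthesis enzymes and 3 genes of sterol binding and receptor turnover (Stard4, Tmem97 and Mylip). Messenger RNA was sequenced from 3 libraries of such cultures from S100a16+/- mice and from 3 libraries of WT mice. S100a16+/- mice are heterozygous for the calcium-binding protein gene S100a16. Both genotypes had the C57BL/6J background, and all cells were kept for 7 days in medium with fetal bovine serum (FBS). No other allele or agent is named for either group. Age, sex and the number of animals are not given in the labels, nor whether libraries of 1 group came from separate mice. The p-values therefore measure the spread between these libraries, which may be technical. The comparison asks whether sterol pathway transcripts differ when S100a16 is reduced.

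Cholesterol is built from acetyl-CoA through mevalonate to isoprenoid units, which are joined into squalene, closed to lanosterol and trimmed to cholesterol. The transcription factors SREBP-1 and SREBP-2, made from Srebf1 and Srebf2, sit in the endoplasmic reticulum with the escort protein SCAP. When sterols are scarce SCAP carries them to the Golgi for cleavage, and when sterols are plentiful the INSIG proteins hold SCAP back. The released factors switch on the enzyme genes and Insig1, so the pathway is regulated as a block. In stellate cells, free cholesterol is known to sensitise to fibrogenic signals.

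Library totals ran from 61979103 to 76291481 counts, and a member had from 353 to 11478 counts in a library. S100a16 stood at 17.7 to 30.0 FPKM (fragments scaled to gene length and library size) in the S100a16+/- libraries and at 56.8 to 58.8 in WT, with the highest S100a16+/- value in replicate 3. That library stood apart. Its Pearson correlation with S100a16+/- replicates 1 and 2 across genes was 0.930 and 0.929, against 0.987 between those, and it alone had female-type expression (Xist at 32.2 FPKM, at most 0.0323 elsewhere). Summed FPKM over 8 stellate and myofibroblast markers was 1063 and 1038 in S100a16+/- replicates 1 and 2, 129 in replicate 3 and 890 to 999 in WT. The vitamin A storage gene Lrat was at most 0.0517 FPKM in any library and Reln at most 0.531, so these quiescent stellate markers were near 0 throughout. Over 8 hepatocyte markers the sums were 8.28, 8.36 and 389 in S100a16+/- replicates 1 to 3 and 58.7 to 88.2 in WT. Over 8 macrophage markers they were 13865, 14943 and 8905 against 6894 to 7202, carried by Lyz2 and Marco. Of these 8, Marco and Adgre1 rose by edgeR, Csf1r and Vsig4 had log2 changes of 0.09 and 0.02, and Timd4, at -0.47, was below WT in every S100a16+/- library. Clec4f was at 193%, 209% and 43.1% of the WT mean in S100a16+/- replicates 1 to 3. Over 8 endothelial markers the sums were 517, 496 and 1613 against 1223 to 1366, with Cdh5 the most abundant (290, 283 and 930 against 628 to 698). All 7 tested ones were below WT in replicates 1 and 2. In replicate 3, 5 of them were the highest of the 6 libraries, while Stab2 and Lyve1 were at 99.2% and 86.7% of the WT mean. Clec4g, too low to be tested, went the other way, with 3.24, 3.14 and 0.468 FPKM against 0.576 to 0.995. Of 8 proliferation genes 3 fell by edgeR (Mki67, Top2a and Ccna2), 5 had every S100a16+/- library below WT, and the median log2 change was -0.63. Their sums were 118, 110 and 109 against 119 to 142, with Pcna, at a log2 change of 0.14, the most abundant. The 5 cholangiocyte genes summed to 231, 220 and 81.0 against 35.0 to 40.9, nearly all of it Spp1 (226, 215 and 77.2 against 30.2 to 35.8). Krt19 overlapped between the groups, and Sox9 was lower in every S100a16+/- library than in WT. The 5 lymphocyte genes summed to at most 0.465. In every library the macrophage sum was above the stellate and myofibroblast sum, although the labels name stellate cells. The values of the members are therefore those of the whole culture, not of stellate cells alone. The part of these markers in the sterol results was not tested. In such bulk RNA, fewer cells of a type and less RNA per cell cannot be told apart.

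The upstream sequences of 6 members are shown because most members followed 1 pattern across the libraries, described below. They comprise 4 enzymes and Insig1, which carried that pattern, and Mylip, the only member called between the genotypes over all libraries. Each run is the 250 bases before the RefSeq start site (GRCm38.p6), 5′ to 3′ on the gene's strand. Capitals mark CCAAT, the box bound by NF-Y, a partner of SREBPs, GGGCGG, the GC box of Sp1, TCACNCCAC, a form of the sterol regulatory element, and CACGTG, the E-box, each on either strand.

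Hmgcs1 (chr13:119690101-119690350, plus strand): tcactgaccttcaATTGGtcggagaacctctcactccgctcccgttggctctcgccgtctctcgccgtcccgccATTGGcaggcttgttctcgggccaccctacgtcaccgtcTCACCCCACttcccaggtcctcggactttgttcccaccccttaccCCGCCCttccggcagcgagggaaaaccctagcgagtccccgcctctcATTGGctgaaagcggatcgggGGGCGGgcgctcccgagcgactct
Mvd (chr8:122443423-122443672, minus strand): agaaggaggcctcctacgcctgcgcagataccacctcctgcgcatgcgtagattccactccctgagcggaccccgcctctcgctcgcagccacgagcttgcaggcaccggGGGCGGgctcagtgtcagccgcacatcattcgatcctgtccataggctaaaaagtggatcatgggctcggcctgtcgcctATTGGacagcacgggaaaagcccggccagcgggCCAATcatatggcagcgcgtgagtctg
Lss (chr10:76531355-76531604, plus strand): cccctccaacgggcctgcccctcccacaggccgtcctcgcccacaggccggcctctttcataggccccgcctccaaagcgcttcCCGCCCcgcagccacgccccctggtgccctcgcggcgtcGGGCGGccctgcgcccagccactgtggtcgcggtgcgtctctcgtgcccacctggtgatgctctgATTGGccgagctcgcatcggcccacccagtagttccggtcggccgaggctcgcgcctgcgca
Msmo1 (chr8:64733579-64733828, minus strand): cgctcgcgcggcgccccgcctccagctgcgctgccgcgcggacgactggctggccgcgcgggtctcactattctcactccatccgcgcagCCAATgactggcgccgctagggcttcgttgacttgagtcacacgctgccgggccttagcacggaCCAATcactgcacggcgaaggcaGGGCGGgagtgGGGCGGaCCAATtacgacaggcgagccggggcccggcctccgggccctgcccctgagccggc
Insig1 (chr5:28071162-28071411, plus strand): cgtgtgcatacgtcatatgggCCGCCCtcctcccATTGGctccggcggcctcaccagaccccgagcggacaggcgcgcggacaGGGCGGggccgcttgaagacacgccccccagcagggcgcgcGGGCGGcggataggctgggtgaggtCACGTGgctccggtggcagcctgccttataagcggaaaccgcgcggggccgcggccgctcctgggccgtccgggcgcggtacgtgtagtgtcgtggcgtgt
Mylip (chr13:45389492-45389741, plus strand): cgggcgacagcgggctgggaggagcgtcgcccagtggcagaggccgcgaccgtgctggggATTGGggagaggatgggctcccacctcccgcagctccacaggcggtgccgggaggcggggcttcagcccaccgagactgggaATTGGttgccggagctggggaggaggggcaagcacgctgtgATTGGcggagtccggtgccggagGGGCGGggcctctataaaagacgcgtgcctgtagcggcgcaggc

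Of the 28 members 24 had an upstream window in the RefSeq set, and 22 of these (91.7%) held a CCAAT box. Among the 9088 tested genes with a window the share was 40.1%. Members with 1 window gave 18 of 19 (94.7%), against 37.1% of tested genes with 1 window. GGGCGG was in 22 of the 24 members (91.7%), against 64.7% of tested genes, and both motifs were in 20 (83.3%), against 26.5%. TCACNCCAC was in the window of 1 member, Hmgcs1, where it begins 137 bases before the start site, and in 1.24% of tested genes. CACGTG was in 5 members (20.8%) and in 10.2% of tested genes. The Hmgcs1 and Msmo1 windows held 3 CCAAT boxes each, and so did that of Mylip. No motif overlapped another in the members' windows. A match describes letters in a window and shows no binding.

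Over all 6 libraries 1 member was called between the genotypes, and it was not among the 20 synthesis enzymes. Mylip fell, and no member was called higher, by the edgeR quasi-likelihood test at an adjusted p under 0.05. A member without a call is not shown to be equal in both genotypes. All 28 members passed the filter of at least 1 FPKM in at least 3 libraries. Among the 12766 genes tested, 364 (2.85%) rose and 206 (1.61%) fell, 4.46% in all, and with library totals alone as scaling 282 rose and 252 fell. A single call in 28 is near that background. At an unadjusted edgeR p under 0.05 no member was higher and 4 were lower: Mylip, Lbr, Stard4 and Srebf1. Of all 12766 tested genes 1589 were higher and 1218 lower at that level. DESeq2 called 0 members higher and 3 lower (Mylip, Stard4 and the enzyme gene Lbr), beside 1125 and 763 of all tested genes. With limma on log2(FPKM + 1) the calls were 0 and 1 among members, beside 260 and 247 of all. The members' log2 changes, S100a16+/- over WT, ran from -0.41 in Mylip to 0.49 in Lss with a median of 0.11. The median over all tested genes was 0.00.

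The enzymes instead split the S100a16+/- libraries. In 15 of the 20 enzymes, S100a16+/- replicates 1 and 2 both lay above all 3 WT libraries while replicate 3 lay below all 3. Insig1 and Tmem97 had the same order, which made 17 of 28 members (60.7%), against 6.77% of all tested genes. Among the tested markers, 3 of 6 stellate and myofibroblast genes had it (Acta2, Des and Tagln), and so did 1 of 8 macrophage genes. It was found in 0 of 7 endothelial and 0 of 5 hepatocyte genes. The part of these markers was not tested. On CPM (counts scaled to library size) adjusted by TMM, edgeR's correction for library composition, the order was again found in 17 members, against 8.58% of all. Replicate 3 was the lowest of the 6 libraries in 22 members on the FPKM scale, where 26.8% of tested genes had that order. The median log2 ratio of the enzymes to the WT mean was 0.35 and 0.36 in replicates 1 and 2 and -0.43 in replicate 3. The WT libraries lay between -0.06 and 0.02. A mean over the 3 S100a16+/- libraries therefore joins values on both sides of WT, and the SE of the enzymes reached 0.37 (Fdps and Cyp51).

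**Figure D1:**
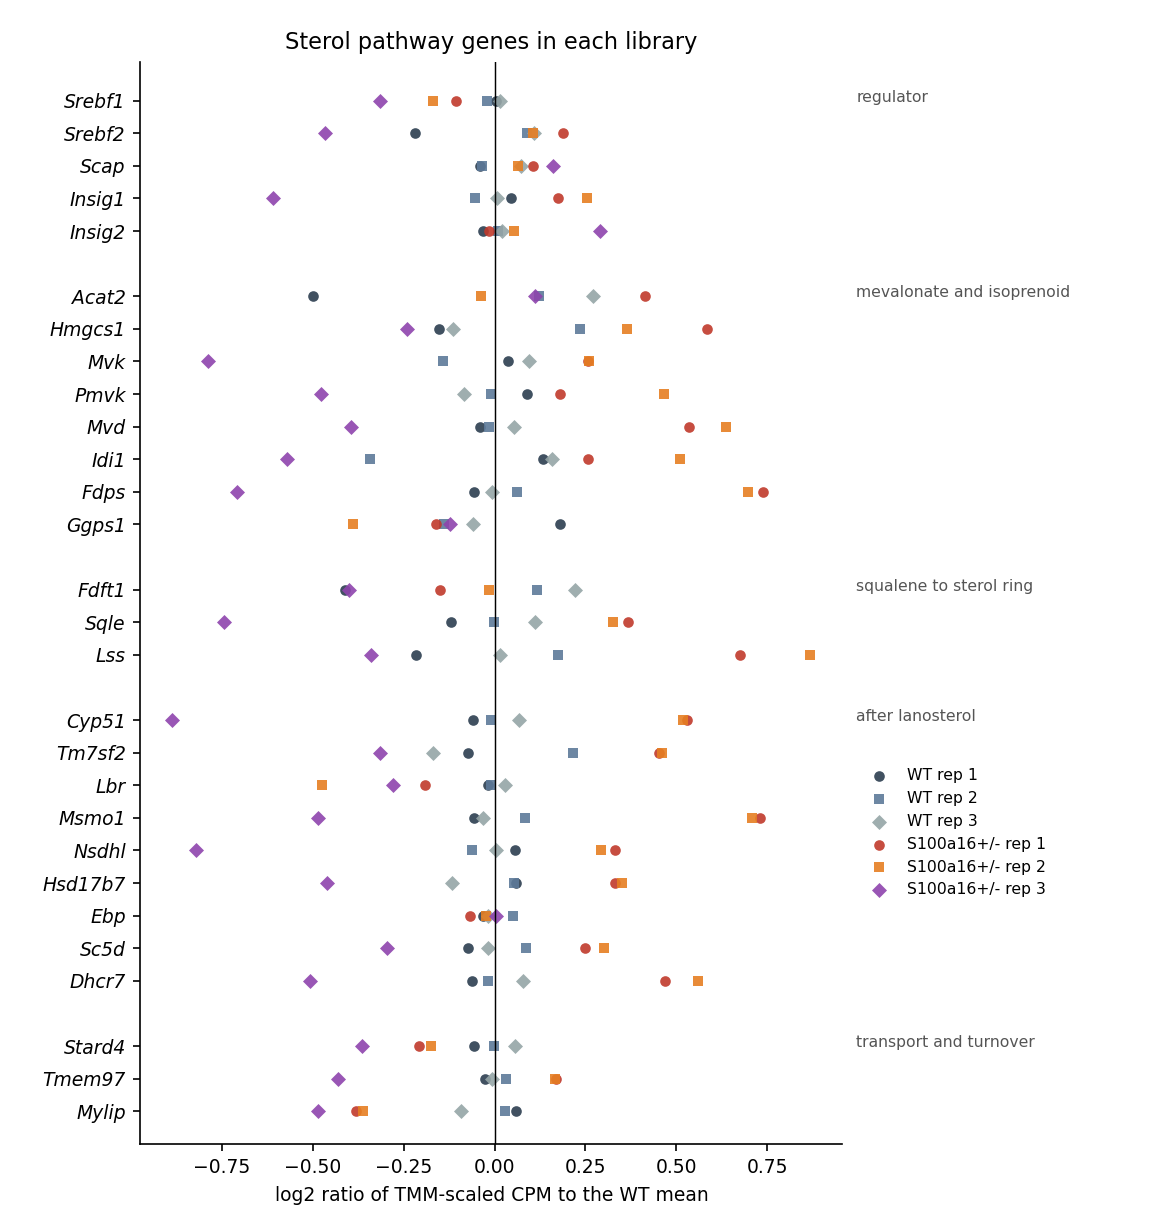
Log2 ratio of TMM-scaled CPM to the WT mean (x axis) for each of the 28 members (y axis, grouped by role), with 1 point per library. S100a16+/- replicates 1 and 2 lie to the right and replicate 3 to the left of the WT points in most enzymes (medians 0.35, 0.36 and -0.43), while all 3 lie to the left in Mylip.

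**Figure D2:**
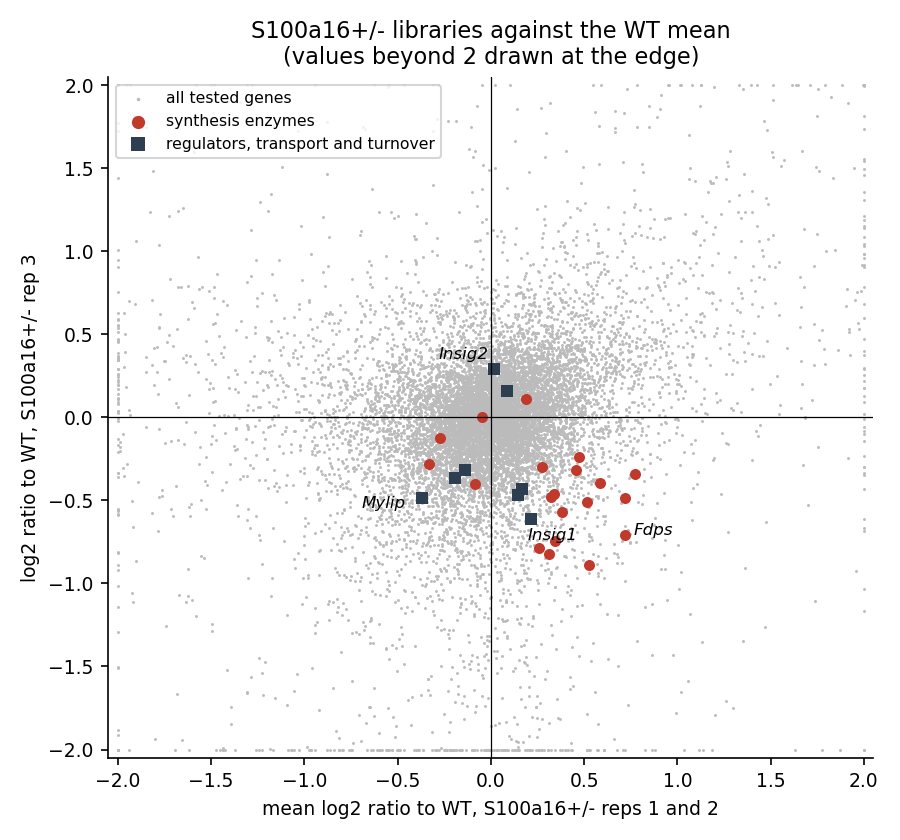
Mean log2 ratio to WT of S100a16+/- replicates 1 and 2 (x axis) against that of replicate 3 (y axis), for all 12766 tested genes (grey) and the members (enzymes as red circles, the others as dark squares). Most enzymes sit at the lower right, and Mylip in the lower left.

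Among the regulators, Srebf1, which encodes SREBP-1, had 11.1, 10.5 and 9.81 FPKM in S100a16+/- replicates 1 to 3 and 12.4, 12.3 and 12.6 in WT replicates 1 to 3. Every S100a16+/- library was below every WT library, an order found in 18.9% of tested genes. The means were 10.5 ± 0.644 and 12.4 ± 0.169 (SD, n = 3 each), a log2 change of -0.19 that edgeR did not call (SE 0.07, adjusted p = 0.191). Srebf1 overlaps Rai1 on the other strand, whose counts were 34.1% of its own, so without stated strand counting its level is uncertain. Srebf2, which encodes SREBP-2, the main factor for cholesterol genes, had 19.4, 18.2 and 12.6 FPKM against 15.2, 18.8 and 19.1. Replicate 3 was the lowest library and the groups overlapped (log2 change -0.03, SE 0.19, edgeR adjusted p = 0.948).

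Scap, the sterol-sensing escort, had 12.9, 12.4 and 13.7 FPKM in S100a16+/- and 12.1, 12.1 and 13.1 in WT. The groups overlapped and its log2 change was 0.11 (SE 0.06, edgeR adjusted p = 0.360). Insig1, the SREBP-induced retention protein, had 27.97, 29.3 and 16.6 FPKM against 26.5, 24.8 and 25.98. Relative to the WT mean, its S100a16+/- libraries were at 109%, 114% and 64.3%, so it followed the enzymes (log2 change -0.01, SE 0.23, edgeR adjusted p = 0.984). Insig2, its relative with the same retention role, had 6.47, 6.72 and 8.16 FPKM against 6.63, 6.84 and 6.92. Here replicate 3 was the highest of the 6 libraries, at 120% of the WT mean, the opposite side from Insig1 (log2 change 0.12, SE 0.10, edgeR adjusted p = 0.565). Scap was also highest in replicate 3, and 24.6% of tested genes were.

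**Figure D3:**
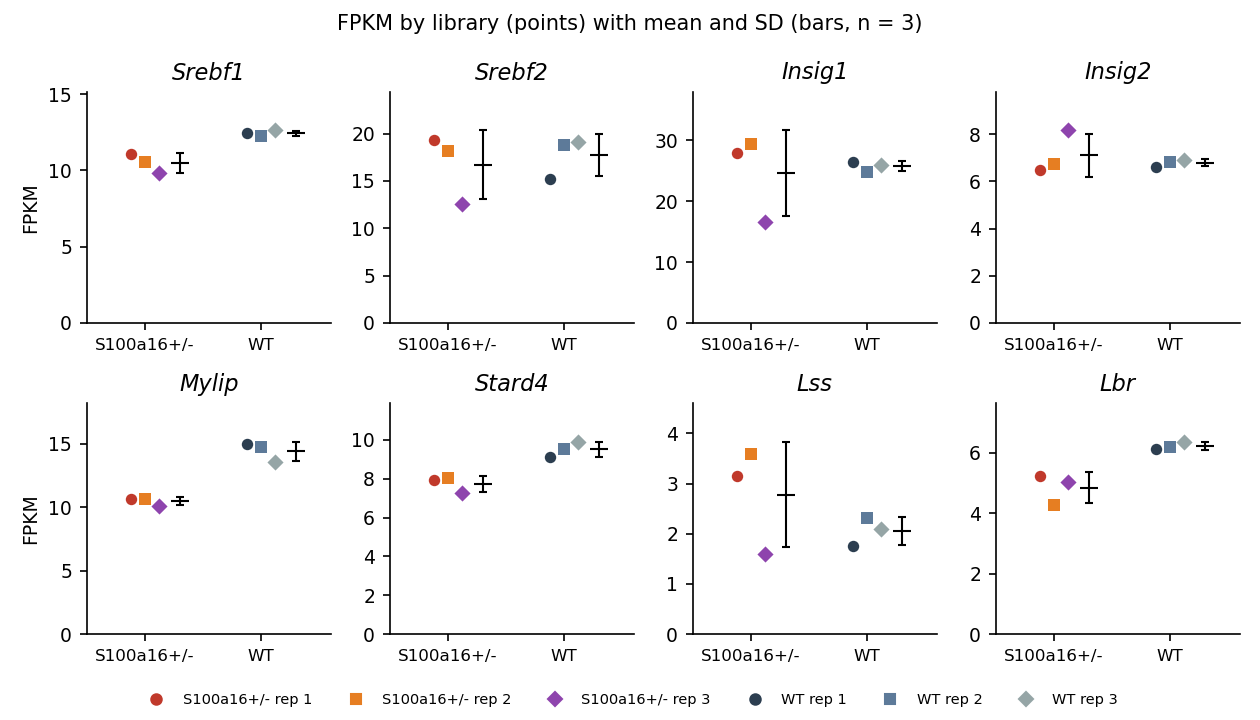
FPKM (y axes, from 0) of 8 members in the 3 S100a16+/- and 3 WT libraries, with points per library and bars for mean and SD. In Mylip, Stard4, Srebf1 and Lbr the groups do not overlap, Insig1 and Lss show replicate 3 below the other libraries, and Insig2 shows it above.

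The mevalonate and isoprenoid enzymes open the pathway. Hmgcs1, which makes HMG-CoA, had 14.4, 12.2 and 8.27 FPKM in S100a16+/- replicates 1 to 3 and 8.92, 11.7 and 9.23 in WT. Replicates 1 and 2 were the highest libraries and replicate 3 the lowest (log2 change 0.28, SE 0.23, edgeR adjusted p = 0.548). Mvd, which decarboxylates mevalonate diphosphate, had 15.8, 16.9 and 8.47 FPKM against 11.02, 11.3 and 11.8. Relative to the WT mean the S100a16+/- libraries were at 139%, 149% and 74.5% (log2 change 0.33, SE 0.27, edgeR adjusted p = 0.541). Fdps, which makes farnesyl diphosphate, had 13.4, 12.9 and 4.99 FPKM against 7.98, 8.71 and 8.32. These were 161%, 155% and 59.9% of the WT mean, the widest split among enzymes of this stage (log2 change 0.38, SE 0.37, edgeR adjusted p = 0.613).

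The mevalonate kinases Mvk and Pmvk and the isomerase Idi1 showed the same order, with replicate 3 at 56.2%, 70.2% and 65.9% of the WT mean. A pair of genes of this stage did not. Ggps1, which makes geranylgeranyl diphosphate for protein prenylation and leads away from sterols, had 5.25, 4.43 and 5.50 FPKM against 6.90, 5.53 and 5.87. Every S100a16+/- library was below every WT library, by little (log2 change -0.22, SE 0.12, edgeR adjusted p = 0.361). Its counts are uncertain because Arid4b overlaps it on the other strand with more counts (165% of its own). Acat2, the cytosolic thiolase that begins the route, had overlapping groups (4.52 to 7.78 FPKM in WT and 5.97 to 8.24 in S100a16+/-). Its near-identical copy Acat3 had 92 to 686 counts, so reads may be split between them.

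From squalene to the sterol ring, Lss, which closes squalene epoxide to lanosterol, had the largest log2 change of the members on the higher side. It had 3.16, 3.59 and 1.59 FPKM in S100a16+/- and 1.76, 2.32 and 2.09 in WT. Relative to the WT mean these were 154%, 175% and 77.4% (log2 change 0.49, SE 0.32, edgeR adjusted p = 0.432). The squalene epoxidase gene Sqle stood at 124%, 120% and 58.4% of the WT mean. Fdft1, which makes squalene, was between 74.3% and 94.2% in the S100a16+/- libraries with overlapping groups. Its counts are uncertain, since the cathepsin gene Ctsb overlaps it on the other strand with 409311 to 625893 counts per library, against a mean of 2083 for Fdft1.

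After lanosterol, Msmo1, which removes methyl groups from the ring, had 11.7, 11.4 and 5.14 FPKM in S100a16+/- and 7.04, 7.79 and 7.20 in WT. The S100a16+/- libraries were at 160%, 156% and 70.1% of the WT mean (log2 change 0.42, SE 0.32, edgeR adjusted p = 0.512). Cyp51, the lanosterol demethylase, stood at 139%, 137% and 52.9%, and Dhcr7, which reduces a double bond of the ring, at 133%, 141% and 68.8%. The demethylation partners Nsdhl and Hsd17b7 and the desaturase gene Sc5d had the same order, with replicate 3 at 55.2%, 71.0% and 79.9%. Ebp, the sterol isomerase, was between 91.7% and 98.4% of the WT mean in all 3 S100a16+/- libraries. Cyp51 shares its locus with Akap9 on the other strand, at 168% of its counts. Akap9 did not have the split, with 2.69, 2.87 and 3.93 FPKM against 3.30 to 3.51.

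A pair of genes encodes sterol C14 reductases, and their values differed in pattern. Tm7sf2 had 1.94, 1.94 and 1.15 FPKM against 1.39, 1.72 and 1.31, the enzymes' common order (log2 change 0.25, SE 0.25, edgeR adjusted p = 0.625). It overlaps Vps51 on the same strand, which had 387% of its counts and 7.01, 6.59 and 4.13 FPKM against 5.98 to 6.20, so Tm7sf2 is uncertain. Lbr, whose protein also anchors chromatin at the nuclear lamina, had 5.23, 4.25 and 5.02 FPKM against 6.11, 6.17 and 6.36. All 3 S100a16+/- libraries were below WT, at 68.4% to 84.2% of its mean, and the log2 change was -0.31 (SE 0.09, edgeR adjusted p = 0.130). DESeq2 called it (adjusted p = 0.0438).

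Among the genes of transport and turnover, Mylip (ENSMUSG00000038175, chromosome 13, 45389742 to 45412022, plus strand) encodes a ubiquitin ligase that sends lipoprotein receptors for degradation and is induced by the sterol-sensing LXR receptors. It had 10.6, 10.7 and 10.1 FPKM in S100a16+/- replicates 1 to 3 and 14.9, 14.7 and 13.5 in WT. The groups did not overlap, and replicate 3 lay with replicates 1 and 2. The means were 10.5 ± 0.329 and 14.4 ± 0.748 (SD, n = 3 each), and Mylip fell by 0.41 in log2 units, with an SE of 0.07 and an edgeR adjusted p of 0.0432. The change stayed between -0.45 and -0.37 with any library left out. The call held without S100a16+/- replicate 3 (edgeR adjusted p = 0.00999) and was lost without each of the other 5 libraries (edgeR adjusted p from 0.130 to 0.176). It was also lost with no filter on low values (edgeR adjusted p = 0.0852) and with edgeR's own filter (edgeR adjusted p = 0.0546).

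Stard4, a carrier that moves cholesterol between membranes, had 7.91, 8.02 and 7.25 FPKM against 9.11, 9.51 and 9.90. Every S100a16+/- library was below every WT library, at 76.2% to 84.4% of its mean (log2 change -0.25, SE 0.08, edgeR adjusted p = 0.138). DESeq2 called Stard4 at an adjusted p of 0.0395. Tmem97, the sterol-regulated sigma-2 receptor, had 20.4, 20.2 and 13.7 FPKM against 18.4, 19.3 and 18.8. It followed the enzymes, with replicate 3 at 72.7% of the WT mean (log2 change -0.01, SE 0.17, edgeR adjusted p = 0.990). Groups that did not overlap, with S100a16+/- lower, were thus found in Mylip, Stard4, Srebf1, Lbr and Ggps1, 5 of 28 members against 18.9% of tested genes. On TMM-scaled CPM the groups overlapped in Ggps1, which left 4 of 28 members, against 14.4% of tested genes. S100a16+/- replicates 1 and 2 alone were both below every WT library in 6 members, where 36.4% of tested genes had that order.

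With S100a16+/- replicate 3 left out, 11 members were called higher and 2 lower by edgeR, where 15.8% of all tested genes were higher and 16.4% lower, 32.2% in all. The 11 were Insig1 and the enzymes Mvd, Fdps, Sqle, Lss, Cyp51, Msmo1, Nsdhl, Hsd17b7, Sc5d and Dhcr7. The log2 changes were largest in Lss at 0.78 (SE 0.13, edgeR adjusted p = 0.00829), Fdps at 0.72 (SE 0.06, edgeR adjusted p = 0.000647) and Msmo1 at 0.72 (SE 0.06, edgeR adjusted p = 0.000693). The members' median was 0.27 in place of 0.11, and that of all genes was 0.00 in both fits. Insig1 was higher by 0.22 in log2 units (edgeR adjusted p = 0.0260), while Srebf2 at 0.15, Srebf1 at -0.14, Scap at 0.08 and Insig2 at 0.02 were not called. The lower members were Mylip at -0.37 and Stard4 at -0.19 (edgeR adjusted p = 0.00999 and 0.0494). The S100a16+/- group then held 2 libraries, the most alike pair of the 6. All 11 genes called higher had the order described above, so their p-values are no separate evidence for it. With replicate 1 or 2 left out instead, no member was called, and the members' median was -0.00 and -0.06. Leaving aside Cyp51, Tm7sf2, Srebf1, Ggps1, Fdft1 and Acat2, whose counts are uncertain, 10 of 22 members were higher and 2 lower without replicate 3.

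**Figure D4:**
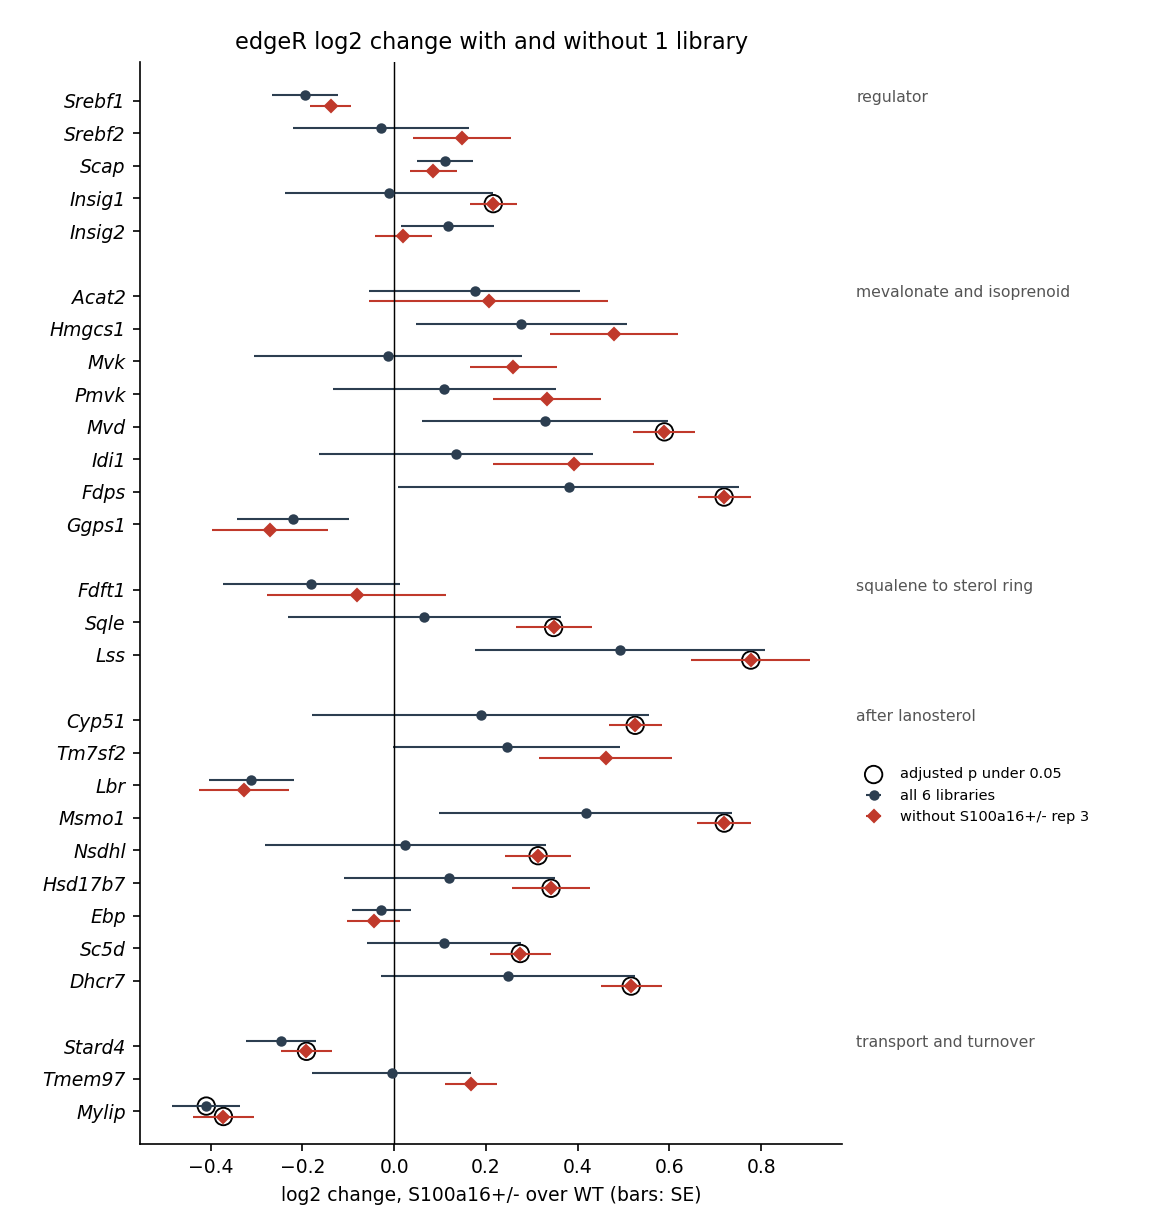
Log2 change of each member, S100a16+/- over WT, with SE bars, from all 6 libraries (dark circles) and without S100a16+/- replicate 3 (red diamonds). Rings mark an adjusted p under 0.05, which Mylip has in both fits, and Stard4 and 11 members on the higher side in the second alone.

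The rest of the sterol and SREBP machinery was followed in 5 further lists with 56 genes in the table, of which 53 were tested. Of these 3 rose and 3 fell, where 2.85% and 1.61% of all tested genes did, and their median log2 change was 0.02. No gene of SREBP cleavage and sterol-dependent turnover was called among 10 (3 higher and 1 lower at an unadjusted p under 0.05). The nearest to a call were Pgrmc1, a heme-binding partner of sterol enzymes, at a log2 change of 0.30 and the ligase gene Syvn1 at 0.18 (edgeR adjusted p = 0.0637 and 0.195). Among 7 synthesis genes outside the 28, Por, which passes electrons to Cyp51 and Sqle, rose by 0.45, from 44.0 ± 1.10 to 58.0 ± 0.628 FPKM (SD, n = 3 each; edgeR adjusted p = 0.0198). The mitochondrial thiolase gene Acat1 fell by 0.50 (edgeR adjusted p = 0.0394).

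Of 13 tested genes of fatty acid synthesis and other SREBP-1 targets, 1 fell, the phosphatidate phosphatase gene Lpin1, by 0.51 on the log2 scale (edgeR adjusted p = 0.0306). It had 4.24, 3.98 and 4.53 FPKM against 6.48, 6.49 and 5.80. Of 12 genes of sterol uptake and transport 2 rose and 1 fell. Lipa, the lysosomal acid lipase that frees cholesterol from its esters, rose by 0.79 with 157, 154 and 115 FPKM against 86.8, 88.2 and 81.4 (edgeR adjusted p = 0.0472). Stard3, a late endosomal cholesterol carrier, rose by 0.38, and the HDL receptor gene Scarb1 fell by 0.36 (edgeR adjusted p = 0.0430 and 0.0331). The 6 calls of the further lists were each lost with the replicate block and with any library other than S100a16+/- replicate 3 left out. With no filter on low values Por alone kept its call, and with edgeR's own filter Acat1, Lipa and Stard3 lost theirs (edgeR adjusted p = 0.0550, 0.0577 and 0.0615). Lipa and Stard3 were not called by limma at any of 3 pseudocounts, nor Stard3 with library totals alone (edgeR adjusted p = 0.0557). The macrophage marker sum was also higher in the same libraries, as given above, and its part was not tested. None of 11 genes of LXR, efflux and esterification was called (3 higher and 0 lower at an unadjusted p under 0.05). The smallest p were those of Nceh1, a cholesteryl ester hydrolase, at 0.48 and Nr1h3, which encodes LXR alpha, at 0.65 (edgeR adjusted p = 0.0611 and 0.0919).

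The same ratios were taken for these lists. In S100a16+/- replicates 1 to 3 the median log2 ratio to WT was -0.04, -0.18 and -0.21 for fatty acid synthesis, 0.04, 0.05 and 0.18 for SREBP cleavage and turnover, and 0.11, 0.13 and 0.16 for uptake and transport. The order with replicates 1 and 2 above and replicate 3 below WT was found in 8 of the 53 genes (15.1%), above the 6.77% of all tested genes. It was found in 3 of 13 genes of fatty acid synthesis (23.1%) and in 3 of 12 of uptake and transport (25.0%), beside 15 of the 20 enzymes. The difference from the enzymes was not tested.

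**Figure D5:**
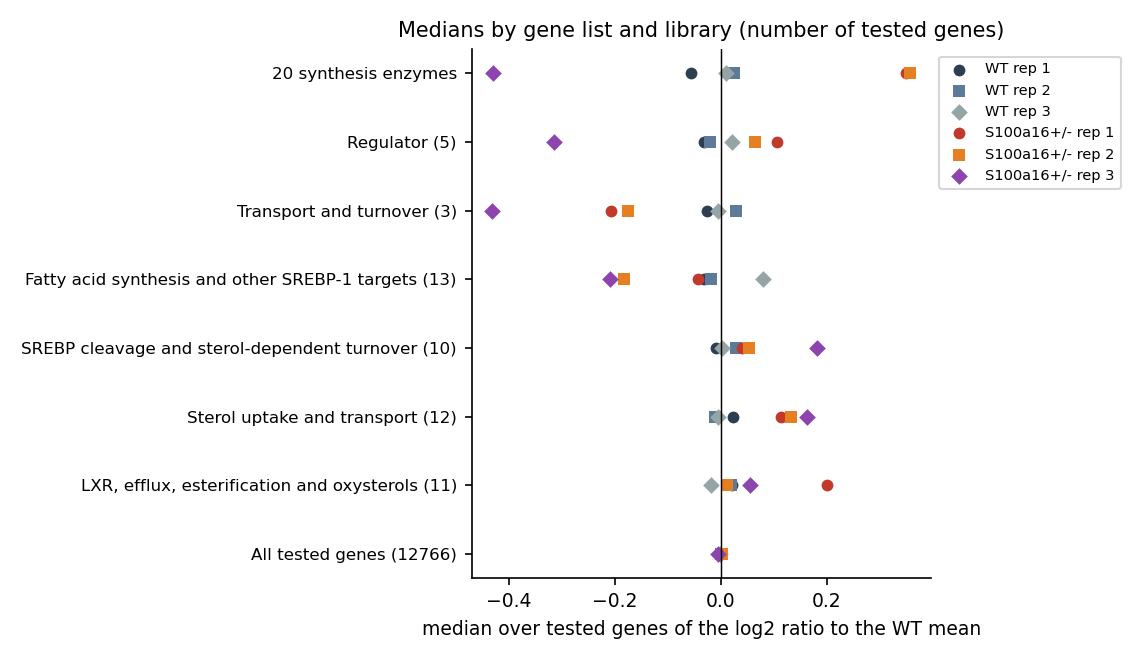
Median over tested genes of the log2 ratio to the WT mean (x axis) for the enzymes, the other members and 4 further lists (y axis, number of tested genes in brackets), with 1 point per library. The 20 enzymes spread from -0.43 to 0.36, and the median of all 12766 tested genes is 0.00 in every library.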

How the data were processed

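Messenger RNA was measured in 6 libraries, 3 per genotype. The authors deposited a whole-number count and an FPKM value per gene and library, per the file headers. FPKM, as deposited, divides a count by gene length and library total, and holds 0.0001 where the count is 0. StringTie 1.3.4d, HISAT2 2.0.4 and cutadapt 1.9 are listed with no roles in the submitters' processing notes, beside edgeR, UMI-tools and DESeq2. Genome build and strand use in counting were not given in the sources used here. Coordinates are as in the table, and 25 of the 28 members had the same ones in GENCODE M21 (GRCm38). No rows without a gene were found.

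Genes with at least 1 FPKM in at least 3 of 6 libraries were tested on counts with edgeR 4.0.16 (TMM, quasi-likelihood, genotype alone, R 4.3.3), adjusted by Benjamini-Hochberg over all 12766 and called under 0.05. SE is the log2 change over the square root of F. Ratios per library used CPM + 0.1. Alternatives were DESeq2 1.42.0, limma 3.58.1 with trend on log2(FPKM + 1), (+ 0.1) and (+ 5), other filters and scalings, a replicate block and each library left out. The test was checked on data simulated from these libraries. It recovered 39% of 2-fold and 81% of 4-fold changes, with 8 false calls among 128. Smaller changes were not simulated. Members and lists were chosen with earlier results of these data known. Values per library are given for called members, regulators, transport and turnover members and the 8 enzymes of smallest p. From each other list up to 4 called genes, or the 2 of smallest p, are named. Sequences are from RefSeq (GRCm38.p6), with 24 of 28 members matched. The 6 printed were chosen after their values were seen. Overlapping genes with at least 10% of a member's counts are named. S100a16+/- replicates 1 and 2 differed by more than counting noise (mean chi-square per gene 44.5, 51.0 to 57.5 between WT libraries) and were kept as 2 samples.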

Additional observations from a re-analysis of the deposited data

How the results depend on the processing

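Mylip was lower under every setting, with log2 changes from -0.47 (library totals alone) to -0.33. It lost its call without a filter, with filterByExpr, with the replicate block and without any library other than S100a16+/- replicate 3. Members were called higher without S100a16+/- replicate 3 and under no other setting run. Members called lower were 3 by DESeq2, 0 without a filter, 0 with filterByExpr and 0 with the replicate block, and 0 to 2 with 1 library left out, where 0 to 11 were called higher. Genes called higher and lower were 1125 and 763 by DESeq2, 162 and 81 without a filter, 0 and 0 with the replicate block, and 22 to 2022 and 10 to 2093 with 1 library left out. The share higher was 63.9% with the settings of the report, 52.8% with library totals alone and 51.3%, 52.7% and 48.7% with limma at pseudocounts 1, 0.1 and 5. Of the 53 further genes, 7 were higher and 5 lower by DESeq2, 1 and 0 without a filter and 0 and 0 with the replicate block, 0 to 17 higher and 0 to 12 lower with 1 library left out, and 1 higher with filterByExpr and with limma at each pseudocount. The 6 called genes of these lists lost their calls with any library but S100a16+/- replicate 3 left out.

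Uncalled members near 0 changed sign. Nsdhl was at -0.036 with library totals alone, -0.087, -0.114 and -0.039 with limma at pseudocounts 1, 0.1 and 5, and -0.060 with the replicate block. Sqle was at -0.042, -0.063 and -0.012 with limma and -0.0081 with the block. With 1 library left out the ranges were -0.023 to 0.33 for Acat2, -0.020 to 0.53 for Cyp51, -0.011 to 0.34 for Hsd17b7, -0.10 to 0.39 for Idi1, -0.16 to 0.22 for Insig1, -0.17 to 0.26 for Mvk, -0.16 to 0.31 for Nsdhl, -0.11 to 0.33 for Pmvk, -0.11 to 0.35 for Sqle, -0.15 to 0.15 for Srebf2 and -0.10 to 0.17 for Tmem97. The cause was not tested.

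In the labels, same-numbered libraries share only a number. Their deviations correlated at -0.14, 0.04 and -0.05 across genes, and not every library correlated best with its own number. With 3 libraries per group, these correlations cannot show whether libraries were paired. Each member had at least 353 counts per library, so the spread between libraries, not depth, sets the precision.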
